A study of Mus musculus with 6 samples.

Results

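The genes described here encode the proteins of the cytosolic ribosome, and they were chosen by symbol alone: Rpl or Rps followed by a digit, or Rplp0, Rplp1, Rplp2 or Rpsa, without the Rps6k kinases and without symbols that mark a pseudogene by -ps. The rule took 89 of the 23518 genes in the table. They comprise 77 core members, 46 of the large and 31 of the small subunit, 9 paralogs whose symbol ends in l or l1, and 3 other symbols (Rps27rt, Rpl37rt and Rps19bp1). Of the 89 members, 86 are annotated as protein coding. Rps19bp1 is no ribosomal protein but encodes a binding protein of Rps19, and it was kept because the rule takes its symbol.

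RNA was sequenced from 3 wild-type (WT) samples of mouse ear skin and 3 labelled HdR, from mice in which the HOIL1 protein lacks its RING1 domain. HOIL1, the product of Rbck1, is a subunit of the linear ubiquitin chain assembly complex. Ears of both genotypes had received 10 mg of a cream with 5% imiquimod, a Toll-like receptor agonist used to induce psoriasis-like inflammation, and were sampled on day 1. No untreated skin is part of the comparison, so it asks how the genotypes differ under imiquimod. The labels give neither strain, sex nor age, nor the way the allele was made, and they do not say outright that each sample is a separate mouse, so p-values measure the spread between these samples. Values are coverage, the aligned bases of a gene per Mb of normalised library (bases per Mb), which depends on transcript length. Levels of different genes are therefore compared only per kb of transcript. A change is the log2 difference, HdR minus WT, of coverage plus 1. Tests are two-sided limma tests over 15049 genes with Benjamini-Hochberg adjustment and a threshold of 0.05.

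Cytosolic ribosomes are built from a large subunit, which forms peptide bonds, and a small subunit, which reads the mRNA. Each mature ribosome carries a single copy of most of these proteins, and their genes are expressed in every cell type at high levels. Many of their mRNAs begin with a cytosine followed by a run of pyrimidines, the 5′ terminal oligopyrimidine (TOP) motif, through which mTORC1 signalling and the protein LARP1 control their translation and stability. In skin, ribosomal protein mRNAs are abundant in keratinocytes as well as in infiltrating leukocytes, and bulk RNA cannot tell apart fewer cells of a type from less RNA per cell.

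Several members hold a pyrimidine run near the annotated start site, as a TOP motif would give. The windows of 30 bases that follow are from RefSeq on GRCm38.p6 and run from 15 bases before the annotated start to the 15th base from it. Capitals mark a run of at least 8 pyrimidines that opens with C within 10 bases of the annotated start. The runs open at −2 (Rps27), −8 (Rpl14), −4 (Rplp2), 6 (Rpl39) and −1 (Rps6) from that start. None opens at the annotated start itself, so the windows do not show that these mRNAs begin with the run. The windows are shown for some members with large changes that hold a run, for the S6 kinase substrate Rps6, and for both of the small subunit genes with the smallest changes. They are not a balanced choice. Other core members with large changes held no such run, among them Rpl41 (1.67), Rps23 (1.53), Rpl36a (1.52) and Rpl22 (1.51).
Rps27 (chr3:90213634-90213663, minus strand): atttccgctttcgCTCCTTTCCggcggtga
Rpl14 (chr9:120571502-120571531, plus strand): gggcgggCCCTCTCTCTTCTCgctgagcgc
Rplp2 (chr7:141447636-141447665, plus strand): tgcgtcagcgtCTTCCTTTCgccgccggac
Rpl39 (chrX:37085208-37085237, minus strand): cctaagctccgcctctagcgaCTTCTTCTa
Rps6 (chr4:86857353-86857382, minus strand): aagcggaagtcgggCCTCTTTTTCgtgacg
Rps3a1 (chr3:86142654-86142683, minus strand): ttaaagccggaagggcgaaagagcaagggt
Rps4x (chrX:102189377-102189406, minus strand): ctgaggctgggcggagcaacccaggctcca

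RefSeq promoters were matched to 68 of the 89 members, 57 of them core. A run by this definition was present in 25 of the 68 (36.8%) and in 9.43% of all 27025 genes with a promoter sequence. Among the core members, 23 of 57 held one. The median change was 1.33 in these and 1.15 in the core members without one. Rps4x and Rps3a1 held no run in this window, whereas Rps26, which also showed a small change, held 1. In the whole 300-base promoter (250 before and 50 after the start, both strands), CCGGAAG, a form of the ETS motif, was found in 38.2% of members and 9.93% of all genes. AAGATGGC, part of the YY1 motif, occurred in 8.82% of members and 3.19% of all genes. TATAAA was found in 11.8% of members and 15.7% of all genes. CCGGAAG ends in the AAG with which AAGATGGC begins, so sites of these motifs can overlap.

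Depth ran from 5038 to 5966 Mb of aligned bases in the WT libraries and from 4433 to 5264 Mb in the HdR libraries. Coverage of Rbck1 was 61.9 ± 6.02 in WT and 18.9 ± 5.50 in HdR (SD, n = 3 each; limma adjusted p = 0.00438), thus lower in HdR. The labels state no direction for the level of Rbck1 RNA. Rn45s, the 45S precursor of ribosomal RNA, held 0.112% ± 0.00856 of the aligned bases in WT libraries and 1.04% ± 0.603 in HdR libraries. HdR replicate 2 stood apart and was the highest of all 6 libraries for 84 of the 88 tested members, while WT replicate 2 was the highest WT library for 86. Epidermal identity was checked on 8 basal keratinocyte markers, whose summed level was 6356 to 7381 in WT and 4587 to 5362 in HdR. Hair follicle markers fell (11 of 12; summed level 412 to 621 in WT and 26.1 to 78.8 in HdR), dividing-cell markers fell (7 of 14), and markers of neutrophils (5 of 7), monocytes and macrophages (7 of 11) and adipocytes (5 of 6) rose. For comparison, 12.7% of all genes tested were called higher and 17.9% lower. The part of these marker shifts in the values below was not tested.

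Ribosomal protein genes were higher in HdR skin across both subunits. Of the 88 members tested, 77 rose and 0 fell, whereas 12.7% of all genes tested were called higher and 17.9% lower. Among the 1495 genes with the shortest principal transcripts, which include 61 core members, 777 were called higher. At an unadjusted p under 0.05, limma called 81 members higher (18.5% of all genes) and 0 lower. After adjustment, voom with sample weights called 86 higher (22.6% of all genes) and 0 lower. The estimated change was positive for all 88, with a median of 1.22 against −0.13 for all genes tested. In 85 members every HdR sample lay above every WT sample, a pattern held by 20.9% of all genes. The 3 members whose groups overlapped were Rpl7, Rps3a1 and Rps4l. With the replicate number as a block, 83 members were called higher and 0 lower, against 18.3% of all genes called higher. The 1 member not tested was Rpl10l, a retrogene known from the testis, which had the bases of 1 read pair in HdR replicate 2 and none in the other libraries.

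**Figure D1:**
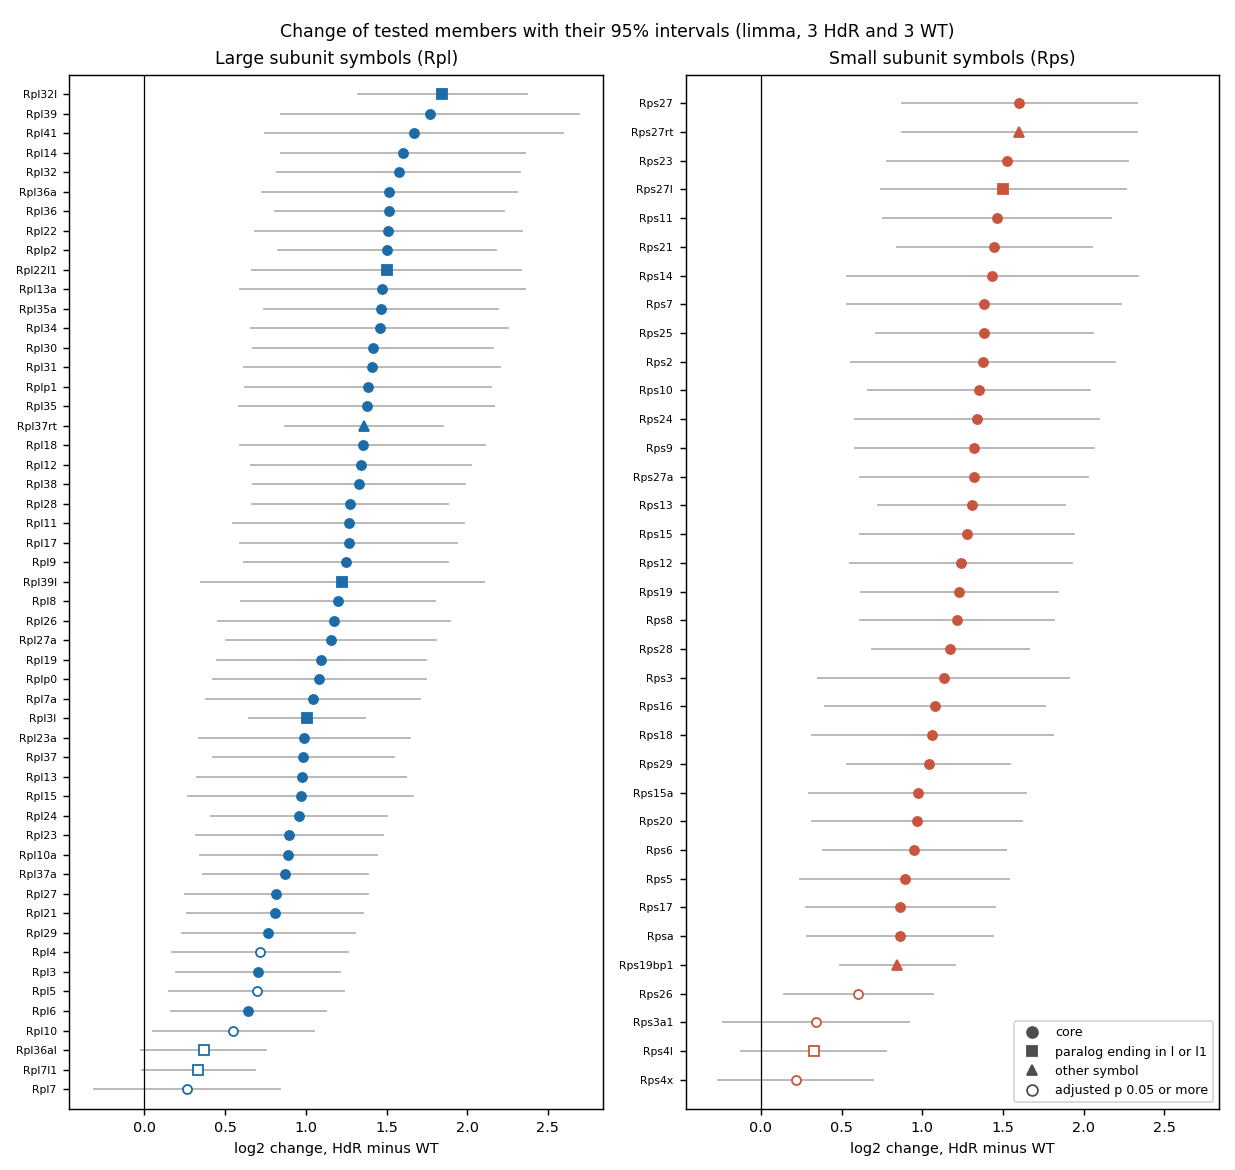
Change (log2, HdR minus WT) of the tested members, except 1 that is not drawn, with 95% intervals, large subunit symbols on the left and small subunit symbols on the right; circles are core members, squares paralogs, triangles other symbols, and open symbols have an adjusted p of 0.05 or more. All points lie above 0, from 0.21 for Rps4x to 1.84 for Rpl32l.

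The count of calls rests on the spread between few libraries. Without WT replicate 1, 3 of 88 members were called higher (1.33% of all genes), and these were the low-coverage members Rpl32l, Rpl3l and Rpl37rt. Without WT replicate 3 the count was 17 (4.1% of all genes), without HdR replicate 2 it was 27 (5.18%) and without HdR replicate 1 it was 49 (6.96%). No member was called lower in these fits. Over the 6 fits that each leave out 1 library, the median change ran from 1.00 to 1.46 for the large and from 1.02 to 1.43 for the small subunit.

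The share of the library that these genes took shows the same difference without any test. Members took 11.2%, 15.2% and 10.6% of all aligned bases in WT replicates 1 to 3 and 19.8%, 26.1% and 19.6% in HdR replicates 1 to 3. Their mean share was 12.3% ± 2.53 in WT and 21.9% ± 3.68 in HdR (SD, n = 3 each). The groups did not overlap, and replicate 2 was the highest of each genotype. Rps27rt was left out of this sum because its row repeats that of Rps27.

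Large and small subunit genes changed by similar amounts. Of the 46 large subunit core members 41 rose, with a median change of 1.19 (range 0.26 to 1.77), and 28 of the 46 were estimated above 2-fold. Of the 31 small subunit core members 28 rose, with a median of 1.23 (range 0.21 to 1.60), and 22 were estimated above 2-fold. The ratio of summed large to summed small subunit coverage was 1.33, 1.33 and 1.36 in WT and 1.36, 1.36 and 1.33 in HdR, so the genotypes overlapped. In each library the mean log2 deviation from the genes' means was nearly equal for both subunits. It was −0.74 for large and −0.72 for small in WT replicate 1, and 1.00 and 0.98 in HdR replicate 2, the extreme HdR library.

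**Figure D2:**
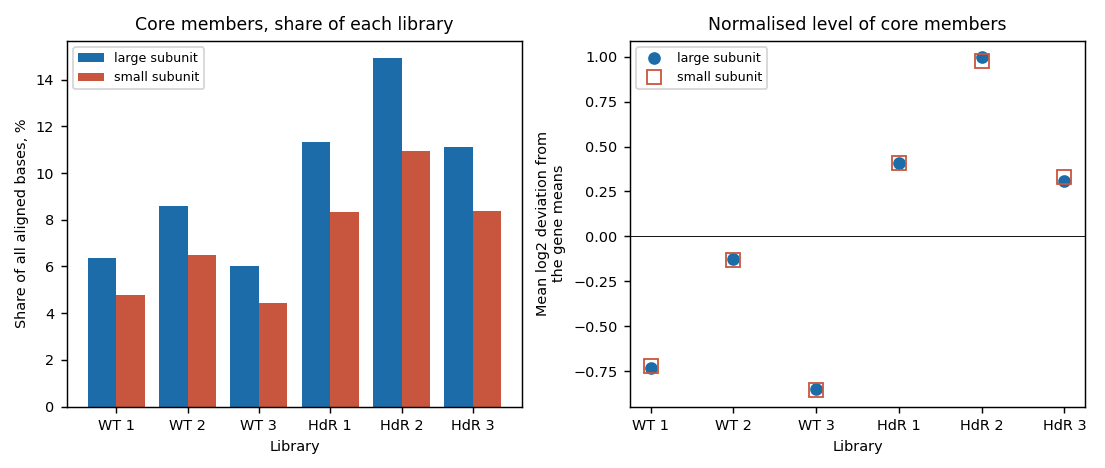
Left, share of all aligned bases (%) taken by core large and small subunit genes in each library; right, mean log2 deviation of the core members of each subunit from their gene means. Bars and points show single libraries; the subunits move together, from −0.85 (large) and −0.86 (small) in WT replicate 3 to 1.00 and 0.98 in HdR replicate 2.

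Per kb of transcript, the most covered members were Rplp1, Rps14, Rpl41, Rps12, Rpl13a and Rpl31. Rplp1, an acidic protein of the stalk that recruits elongation factors, stood at 5372 bases per Mb and kb in WT and 14157 in HdR. Rps14, a small subunit protein of the platform, stood at 4989 and 13407 on the same scale, and Rpl41, the shortest ribosomal protein, at 3989 and 13119. Rps12 was at 4341 and 10161, Rpl13a, which also takes part in silencing inflammatory mRNAs, at 3751 and 10479, and Rpl31, which lies near the exit of the peptide tunnel, at 3527 and 9294. All 6 rose, as did 69 of the 77 core members. The 6 changed by 1.39 (Rplp1), 1.43 (Rps14), 1.67 (Rpl41), 1.24 (Rps12), 1.47 (Rpl13a) and 1.41 (Rpl31). Their order per kb in WT is not firm, because their WT values per gene spread widely: Rps14 coverage was 2402, 4520 and 2012 in WT replicates 1 to 3.

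The stalk of the large subunit consists of Rplp0, its base, and of dimers of Rplp1 and Rplp2, and binds the elongation factors. Rplp0 coverage was 2791, 4488 and 2731 in WT and 6808, 8112 and 5909 in HdR (change 1.08, limma adjusted p = 0.0268). Rplp1 coverage was 2296, 3662 and 2084 in WT and 6028, 9964 and 5200 in HdR (change 1.39, limma adjusted p = 0.0209). Rplp2 coverage was 487, 790 and 446 in WT and 1458, 2194 and 1222 in HdR (change 1.50, limma adjusted p = 0.0131). All 3 stalk genes rose, as did 41 of the 46 large subunit core members. The HdR samples of the 3 stalk genes lay above all of their WT samples.

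Rpl5 and Rpl11 bind 5S ribosomal RNA and, outside the ribosome, the p53 inhibitor Mdm2. Rpl11 coverage was 1570, 2370 and 1402 in WT and 3537, 6062 and 3384 in HdR, and it rose by 1.27 (limma adjusted p = 0.0220). Rpl5 coverage was 1900, 2522 and 1710 in WT and 3118, 3532 and 3169 in HdR. Its groups did not overlap, but its change of 0.70 had an adjusted p of 0.0539 in limma and passed with the replicate block (0.00297). Of 10 p53 targets and related genes, 0 were higher and 1 lower (median −0.20, against −0.13 for all genes; 0 and 2 with the replicate block, and 0 and 2 with a median of −0.049 with the longest-transcript trend removed). That gene was Mdm4, an inhibitor of p53, at 170 ± 35.1 in WT and 52.8 ± 23.1 in HdR (change −1.76, limma adjusted p = 0.0127, SD, n = 3 each). Across all genes tested, 12.7% were called higher and 17.9% lower.

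Among proteins that line the exit tunnel, Rpl39 had the largest change of all core members. Rpl39 (X chromosome, 37082520 to 37085402 on GRCm38, minus strand) had a coverage of 853, 1688 and 681 in WT and 2778, 5583 and 2500 in HdR. Its change was 1.77 (SE 0.41, limma adjusted p = 0.0177), and no HdR sample fell into the WT range. Rpl17, at the tunnel exit, rose by 1.27. Rpl4, whose loop reaches into the tunnel, had a change of 0.71 that did not pass (limma adjusted p = 0.0513; 0.00181 with the replicate block). Rpl41 followed Rpl39 with 1465, 2554 and 1211 in WT and 4578, 9123 and 3498 in HdR (change 1.67, SE 0.41, limma adjusted p = 0.0209). The next changes among core members were 1.60 for Rpl14 and Rps27, 1.57 for Rpl32 and 1.53 for Rps23. Rps27 sits in the small subunit and carries a zinc finger, and Rps23 lies in the decoding centre.

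In the small subunit, the 4 genes examined for proteins along the path of mRNA and tRNA all rose, as did 28 of the 31 core members. These 4 were chosen after their values were seen, so the count says nothing particular about this role. Rps3, at the mRNA entry, had 1945, 3339 and 1836 in WT and 4123, 7513 and 4060 in HdR (change 1.13, limma adjusted p = 0.0378). Rps9, Rps15 and Rps23 rose by 1.32, 1.28 and 1.53. Rps6, the substrate of the S6 kinases downstream of mTORC1, had 934, 1322 and 916 in WT and 1912, 2536 and 1685 in HdR (change 0.95, limma adjusted p = 0.0256). Rps19 and Rps28, both mutated in Diamond-Blackfan anaemia, rose by 1.23 and 1.17. Rpsa, also known as the laminin receptor precursor, rose by 0.86. Rps26, at the mRNA exit, had 764, 893 and 797 in WT and 1183, 1463 and 1104 in HdR, and its change of 0.60 just missed the threshold (limma adjusted p = 0.0509; 0.00444 with the replicate block).

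Rps27a encodes ubiquitin fused to a small subunit protein and thus supplies ubiquitin along with ribosomes. Its coverage was 1294, 2233 and 1073 in WT and 3282, 4524 and 3252 in HdR (change 1.32, limma adjusted p = 0.0191). The polyubiquitin gene Ubb stood at 635 ± 94.4 in WT and 910 ± 305 in HdR (SD, n = 3 each) and did not pass (change 0.48, limma adjusted p = 0.181; 0.0265 with the replicate block).

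**Figure D3:**
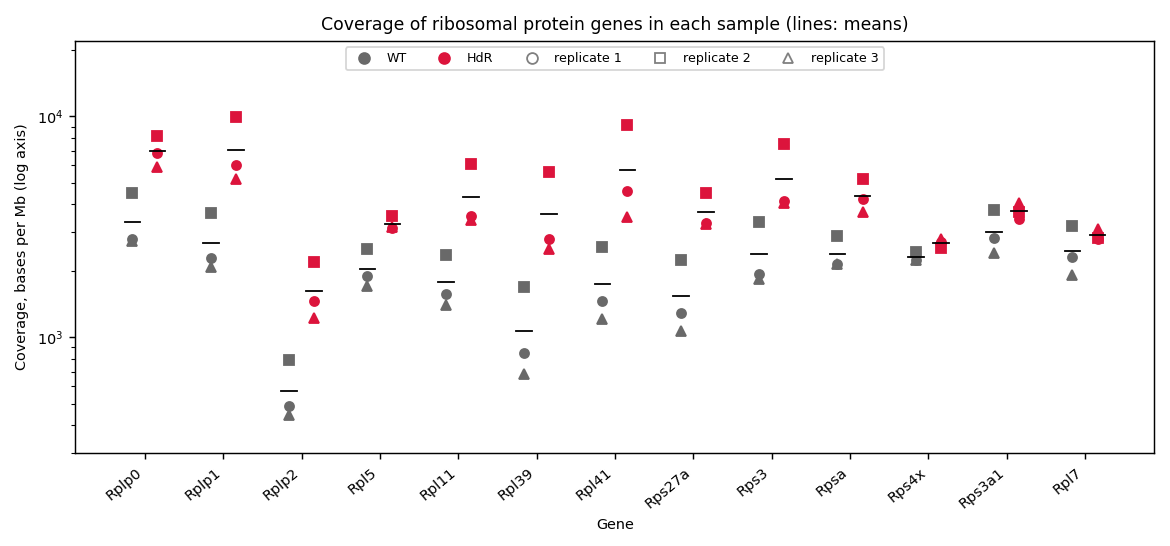
Coverage (bases per Mb, log axis) of 13 core members in each sample, WT in grey and HdR in red, with a marker shape for each replicate number and a line at each group mean. Rps4x, Rps3a1 and Rpl7 on the right lie close together in both genotypes, whereas Rpl39 ran from 681 to 1688 in WT and from 2500 to 5583 in HdR.

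A few core members stood out by how little they differed. Rps4x (X chromosome, 102184941 to 102189394, minus strand), a small subunit protein with a partner on the Y chromosome in humans, had 2240, 2446 and 2228 in WT and 2697, 2550 and 2774 in HdR. Its change was 0.21 with a 95% interval from −0.26 to 0.69 (limma adjusted p = 0.448), although the HdR samples lay just above the WT samples. Rpl7 had 2299, 3190 and 1912 in WT and 2779, 2823 and 3091 in HdR, and WT replicate 2 was its highest sample (change 0.26, interval −0.32 to 0.84, limma adjusted p = 0.442). Rps3a1 had 2808, 3759 and 2406 in WT and 3431, 3698 and 4059 in HdR (change 0.34, interval −0.24 to 0.92, limma adjusted p = 0.319). HdR replicate 2, the highest library for nearly all members, was not the highest for these 3. The intervals allow changes up to 0.69, 0.84 and 0.92, all below the core median of 1.22. These genes were picked for their small changes in the same data, and the intervals are not adjusted for that choice. Their place below the median is therefore no test of a departure from the other members.

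Relative to the mean log2 level of the core members in the same library, the change was −0.93 for Rps4x, −0.88 for Rpl7 and −0.80 for Rps3a1, and 0.63 for Rpl39. Direction for the low genes depends on the scaling. When libraries were scaled to total bases, Rps4x stood at −0.11 and Rpl7 at −0.057, with 72 members called higher (6.1% of all genes) and the median of all genes moved from −0.13 to −0.41. With quantile normalisation 38 members were called higher (15.3% of all genes) and 3 lower (13.9% of all genes), namely Rps4x (−0.67), Rpl7 (−0.66) and Rps3a1 (−0.60), and the subunit medians were 0.42 (large) and 0.41 (small). Core members that also did not pass included Rpl10 (0.55, limma adjusted p = 0.0842), Rps26, Rpl5 and Rpl4. With the replicate block, Rpl10 (0.00547) passed, while Rps4x (0.127), Rpl7 (0.212) and Rps3a1 (0.0986) did not.

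Ribosomal protein transcripts are short, and coverage in these libraries moved with length. The principal transcripts of the core members had a median length of 729 nt (271 to 3706), against 2708 nt for all genes tested. All tested genes were put into 10 equal groups by length. In the shortest group (56 to 1044 nt) the median change was 0.67 over 1495 genes, 777 of them called higher. The 61 core members in that group had a median of 1.27. In the next group (1045 to 1492 nt) the medians were 0.34 for all genes and 0.99 for 10 core members. There, 406 of 1489 genes were called higher. Across the 77 core members, change and length had a Spearman correlation of −0.47 (Pearson −0.43 on log2 length), and across 14901 genes it was −0.54. These points share the same 6 libraries, so the correlations are descriptions across genes. The core members at or below the median length had a median change of 1.33 (n = 39) and the longer ones 1.06 (n = 38).

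**Figure D4:**
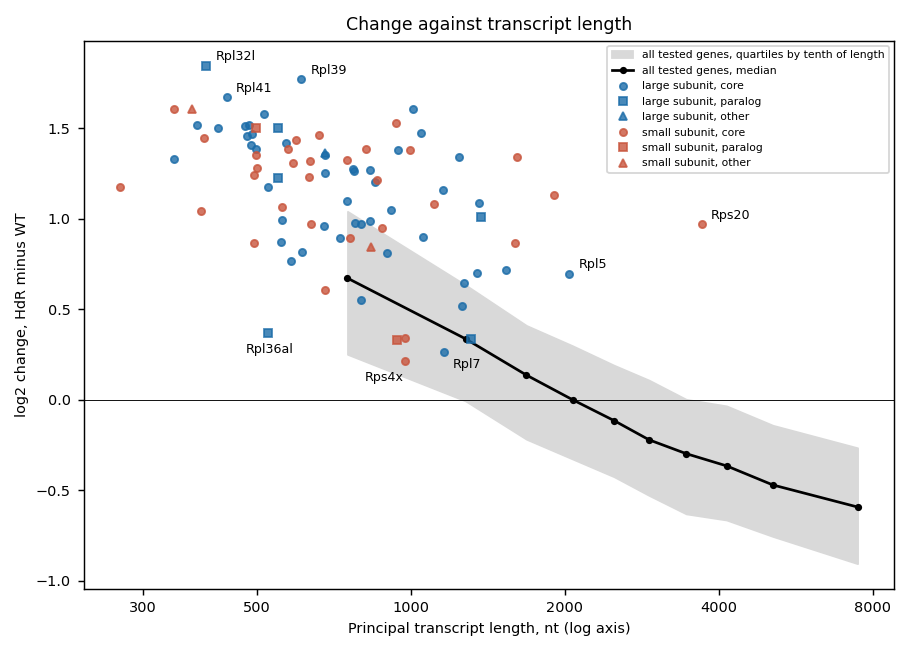
Change (log2, HdR minus WT) against principal transcript length (nt, log axis) for each tested member, over the median (line) and quartiles (grey band) of all tested genes in 10 equal groups by length. The line falls from 0.67 in the shortest group to −0.59 in the longest, and most members lie above it, while Rps4x, Rpl7 and Rpl36al are among those below the median of their length group.

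When a smooth trend on principal transcript length was removed from each library, the members' changes became smaller. The large subunit median was then 0.59 and the small subunit median 0.58, against −0.092 for all genes. Of the 88 members, 43 were called higher (7.17% of all genes) and 0 lower, and 80 kept a positive estimate. The short and the long core members both had a median of 0.58. Among those still called higher were Rpl14 (1.06), Rpl39 (1.04), Rps23 (0.95), Rplp2 (0.70) and Rps27 (0.78). Rps6 (0.34, limma adjusted p = 0.105) and Rps28 (0.33, 0.110) were not. Rps20 had the highest value, 1.20, but its annotated principal transcript of 3706 nt is far longer than those of the other members. Rps4x (−0.35), Rps3a1 (−0.22) and Rpl7 (−0.21) turned negative without passing. With the principal-length trend removed and the replicate block, 62 were called higher (11.2% of all genes) and 2 lower (19% of all genes), Rps4x (limma adjusted p = 0.0445) and Rpl36al (0.0422). With the longest transcript in place of the principal one as the length, and without the block, 49 were called higher (7.93% of all genes) and 0 lower, with medians of 0.63 (large) and 0.73 (small). Length and genotype cannot be told apart here, because the trend differs between the genotypes.

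The paralogs ending in l spread widely. Of the 8 tested, 5 rose and 0 fell, with a median change of 1.12, against 12.7% of all genes called higher and 17.9% lower. With the replicate block 6 rose (18.3% of all genes). With the principal-length trend removed 3 rose (7.17% of all genes), with a median of 0.55. Rpl22l1, a paralog of Rpl22 with roles in T cell development and splicing, had 208, 421 and 166 in WT and 577, 1049 and 549 in HdR (change 1.50, limma adjusted p = 0.0213). It did not pass with the principal-length trend removed (0.75, limma adjusted p = 0.0590). Rps27l, a p53-inducible paralog of Rps27, had 181, 328 and 144 in WT and 493, 850 and 467 in HdR (change 1.50, limma adjusted p = 0.0164). Of 6 T cell markers tested, 0 were higher and 0 lower, against 12.7% and 17.9% of all genes. With the replicate block 1 was higher and 0 were lower. Trac, Trbc1 and Trbc2 of this list were absent from the data. The 7 markers present had a summed level of 34.0 to 58.9 in WT and 40.3 to 63.3 in HdR. The part of T cells in the Rpl22l1 difference was not tested.

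The ratios of both to their parents overlapped between the genotypes. Coverage of Rpl22l1 was 27.9% ± 2.29 of that of Rpl22 in WT and 27.7% ± 1.06 in HdR. Coverage of Rps27l was 19.4% ± 0.951 of that of Rps27 in WT and 18.1% ± 1.55 in HdR (SD, n = 3 each). For 9 such ratios, exact two-sided permutation tests over the samples gave p = 1 for Rpl22l1 and p = 0.4 for Rps27l, and the smallest p that 3 against 3 samples allow is 0.1. Within pairs of the same replicate number, the Rps27l ratio was lower in HdR in 3 of 3 pairs (exact paired permutation p = 0.25, the smallest that 3 pairs allow), and the Rpl22l1 ratio was higher in 2 and lower in 1 (exact paired permutation p = 1).

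Rpl36al, a copy of the X-linked Rpl36a on chromosome 12 (69182731 to 69184083, minus strand), had a smaller estimated change than its parent. Its coverage was 320, 365 and 289 in WT and 424, 435 and 392 in HdR, a change of 0.37 that did not pass (limma adjusted p = 0.124; 0.0361 with the replicate block). Rpl36a had 711, 1281 and 581 in WT and 1942, 3400 and 1888 in HdR (change 1.52, limma adjusted p = 0.0175). The ratio of Rpl36al to Rpl36a was 45.0%, 28.5% and 49.7% in WT and 21.8%, 12.8% and 20.8% in HdR. The groups of this ratio did not overlap (exact permutation p = 0.1, adjusted over 9 ratios 0.18). The principal transcripts are of similar length, 526 nt for Rpl36al and 483 nt for Rpl36a, although the longest annotated Rpl36al transcript has 1276 nt.

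**Figure D5:**
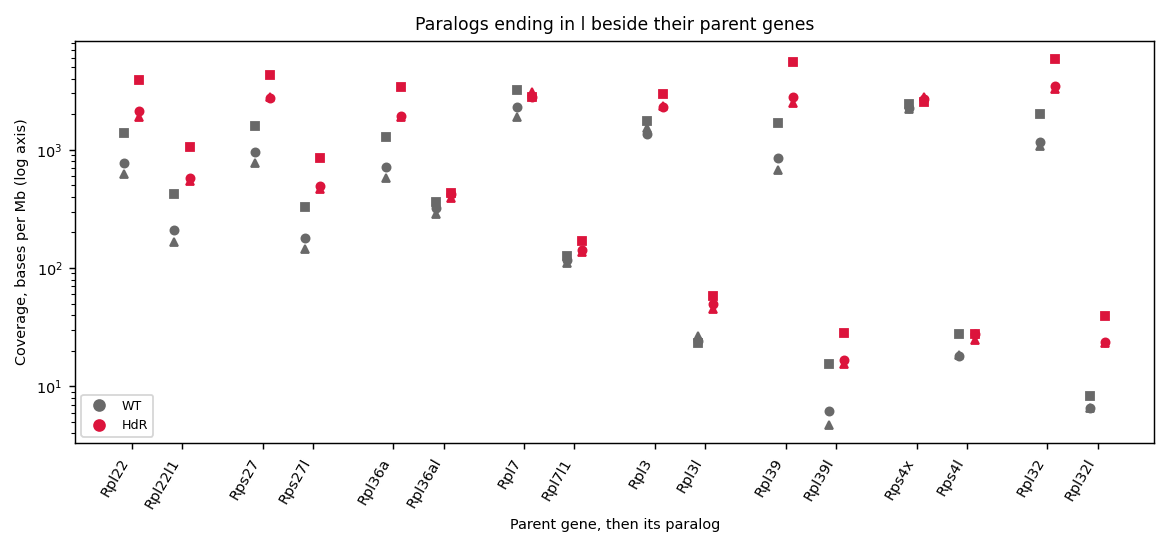
Coverage (bases per Mb, log axis) of 8 paralogs beside their parent genes in each sample, WT in grey and HdR in red, with marker shapes for replicates 1 (circle), 2 (square) and 3 (triangle). Rpl36al ran from 289 to 365 in WT and from 392 to 435 in HdR, while Rpl36a ran from 581 to 1281 and from 1888 to 3400.

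Rpl3l, which replaces Rpl3 in striated muscle, had 24.2, 23.4 and 26.5 in WT and 49.8, 57.7 and 45.3 in HdR (change 1.01, limma adjusted p = 0.00787). Its ratio to Rpl3 was 1.61% ± 0.232 in WT and 2.02% ± 0.124 in HdR (exact permutation p = 0.1, adjusted 0.18). Of 12 skeletal muscle markers, 5 rose and 0 fell (with the replicate block 5 and 4), against 12.7% of all genes higher and 17.9% lower. Their median change was −0.12, against −0.13 for all genes, and −0.22 with the longest-transcript trend removed. Their summed level was 2267 to 3465 in WT and 4406 to 5382 in HdR. Ckm, muscle creatine kinase, stood at 403 ± 21.1 and 859 ± 280, and Acta1, skeletal actin, at 458 ± 129 and 416 ± 142. The part of muscle in the Rpl3l difference was not tested.

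Rpl39l, a paralog of Rpl39 known from male germ cells, was low, at 6.21, 15.6 and 4.70 in WT and 16.8, 28.5 and 15.6 in HdR (change 1.23, limma adjusted p = 0.0423). Rpl39l did not pass with the principal-length trend removed (0.47, limma adjusted p = 0.236). Its ratio to Rpl39 was 0.780% ± 0.124 in WT and 0.579% ± 0.0605 in HdR (exact permutation p = 0.1, adjusted 0.18). Rpl7l1, a factor related to Rpl7 that acts in ribosome assembly, had 118, 127 and 110 in WT and 143, 168 and 137 in HdR (change 0.33, limma adjusted p = 0.122). Rps4l, annotated as a transcribed pseudogene of Rps4x, had 18.1, 27.7 and 18.3 in WT and 27.8, 27.5 and 24.5 in HdR, and its groups overlapped (change 0.33, limma adjusted p = 0.221). The ratio of Rpl7l1 to Rpl7 was 4.95% ± 0.904 in WT and 5.18% ± 0.755 in HdR, and that of Rps4l to Rps4x 0.921% ± 0.185 and 0.997% ± 0.102 (exact permutation p = 0.6 for each). Rpl7l1 and Rps4l are thus paralogs with small changes whose parents also had small changes.

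Rpl32l had the largest change of all members. It is annotated as a processed pseudogene on chromosome 10 (20208490 to 20208888, plus strand) of Rpl32, which lies on chromosome 6 (115805505 to 115808747, minus strand). Its coverage was 6.51, 8.22 and 6.50 in WT and 23.6, 39.4 and 23.2 in HdR (change 1.84, limma adjusted p = 0.00369). Over the 405 coding bases of Rpl32, the copy has 11 differences and 6 gapped positions, an identity of 95.8%. The first 120 coding bases, read from GENCODE M21 transcripts on GRCm38, are shown because reads over them tell the 2 loci apart only by the base in capitals.
Rpl32: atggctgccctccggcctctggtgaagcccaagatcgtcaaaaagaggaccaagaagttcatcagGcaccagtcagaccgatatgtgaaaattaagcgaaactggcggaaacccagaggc
Rpl32l: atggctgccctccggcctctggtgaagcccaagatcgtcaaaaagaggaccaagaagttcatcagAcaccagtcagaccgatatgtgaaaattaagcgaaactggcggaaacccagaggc

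Rpl32l coverage was 0.525% ± 0.104 of that of Rpl32 in WT and 0.688% ± 0.0185 in HdR (exact permutation p = 0.1, adjusted 0.18). How the authors assigned reads that match several loci is not given in the sources used here, so the value of Rpl32l is uncertain. The same holds for Rpl37rt, a transcribed pseudogene with 1 difference from Rpl37 in 291 coding bases. It had 41.2, 43.1 and 43.1 in WT and 102, 155 and 85.6 in HdR (change 1.36, limma adjusted p = 0.00800), 7.01% ± 0.978 and 9.18% ± 0.304 of Rpl37. Rps27rt, a retrogene identical to Rps27 over all 252 coding bases, had the same values as Rps27 in every library to within 0.00308%. Its row thus repeats that of its parent (change 1.60). Rps19bp1 had 19.5, 22.1 and 17.7 in WT and 36.1, 38.0 and 34.5 in HdR (change 0.85, limma adjusted p = 0.0118). It did not pass with the longest-transcript trend removed (0.19, limma adjusted p = 0.372) or the principal-length trend removed (0.22, 0.279).

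Further rows of the table outside the rule repeated a member to within 1%: Gm15772 repeated Rpl26, Gm12191 repeated Rpl30, and Rpl34-ps1 repeated Rpl34. In all, 61 members have pseudogenes named after them in the annotation, 293 in total, with which reads may be shared. The core members without a named pseudogene also rose in most cases. Of these 18, 16 rose, with a median change of 1.06, and of the 59 with a named pseudogene 53 rose, with a median of 1.25. Rps3a1 has no named pseudogene, and Rps4x and Rpl7 have 1 each.

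Fau and Rack1, ribosomal proteins that the symbol rule misses, also rose. Fau, which encodes Rps30 fused to a ubiquitin-like protein, had 601, 1003 and 532 in WT and 1765, 3200 and 1670 in HdR (change 1.62, limma adjusted p = 0.0138). Rack1, a scaffold at the head of the small subunit, rose by 0.91 (limma adjusted p = 0.0380). Both passed again with the longest-transcript trend removed.

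The fixed list of other genes with TOP mRNAs, which shares Fau, Rack1, elongation factors and other members with the other lists, was mixed: 10 of 21 rose and 2 fell (median 0.73), and 10 rose and 3 fell with the longest-transcript trend removed. By the main fit, 12.7% of all genes were called higher and 17.9% lower. Gas5, a non-coding TOP transcript that hosts small nucleolar RNAs, had 210, 284 and 185 in WT and 459, 565 and 555 in HdR (change 1.23, limma adjusted p = 0.00906). Eef1b2, an exchange factor of elongation, stood at 774 ± 260 in WT and 2128 ± 682 in HdR (change 1.46, limma adjusted p = 0.0142). Eef2, the elongation factor that moves the ribosome along the mRNA, went the other way. It had 1723, 1710 and 2045 in WT and 1238, 610 and 1180 in HdR (change −0.92, limma adjusted p = 0.0438), and HdR replicate 2 was its lowest sample. With the principal-length trend removed its change was −0.76 (limma adjusted p = 0.0524).

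Elongation genes numbered 3 higher and 1 lower of 8 (median 0.70; 5 and 2 with the replicate block; 3 and 1 with a median of 0.39 with the longest-transcript trend removed). Besides Eef1b2, those higher included Eef1d (0.73) and Eef1e1 (1.21). Eef1e1 is on the list but, despite its symbol, is no elongation factor. Initiation factors numbered 10 higher and 5 lower of 38 (median 0.20; 7 and 3 with a median of 0.097 with the longest-transcript trend removed). Across all genes tested, 12.7% were called higher and 17.9% lower. Eif1, which selects the start codon, stood at 264 ± 43.6 in WT and 527 ± 27.5 in HdR (change 1.00, limma adjusted p = 0.0110). The Eif3 subunits Eif3h and Eif3g rose by 1.33 and 0.63. Eif4ebp2, an inhibitor of cap binding, stood at 19.5 ± 6.66 and 7.33 ± 1.55 (change −1.26, limma adjusted p = 0.0151).

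Genes that build ribosomes had median changes below those of the ribosomal proteins. The shares to set beside their counts are 12.7% of all genes called higher and 17.9% lower. Of 50 biogenesis factors 11 rose and 0 fell, with a median of 0.047 (13 and 2 with the replicate block; 6 and 0 with a median of 0.11 with the longest-transcript trend removed). Mrto4, an assembly factor of the stalk, stood at 32.8 ± 2.92 in WT and 66.0 ± 10.1 in HdR (change 0.98, limma adjusted p = 0.00951). Nop16 and Wdr74, factors of large subunit assembly, rose by 0.77 each, and Nop10, a protein of the H/ACA particles, by 0.69. Of 20 genes of the RNA polymerase I machinery 7 rose and 1 fell (median 0.39; 9 and 2 with the replicate block; 5 and 0 with a median of 0.14 with the longest-transcript trend removed). Polr2k, a small subunit shared by the nuclear RNA polymerases, changed by 1.78, Polr2f, also shared, by 1.15, Taf1d, of the promoter selectivity factor, by 1.10 and Cd3eap, of the polymerase itself, by 0.79.

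Of 18 mTORC1 and TOP mRNA regulators, 4 rose and 4 fell (median −0.093), against 12.7% of all genes higher and 17.9% lower. With the longest-transcript trend removed, 2 rose and 3 fell, against 1182 and 1711 of all 14901 genes. The median then turned to 0.21. Ddit4, an inhibitor of mTORC1 that stress induces, had 19.6, 29.3 and 28.3 in WT and 47.1, 95.8 and 58.4 in HdR (change 1.31, limma adjusted p = 0.0142). Tsc1, a part of the complex that restrains mTORC1, had 26.0, 19.0 and 30.6 in WT and 10.9, 6.62 and 12.0 in HdR (change −1.29, limma adjusted p = 0.0131). Mycn, a Myc family transcription factor, stood at 2.34 ± 0.202 in WT and 0.556 ± 0.207 in HdR (change −1.11, limma adjusted p = 0.00828). Mycn lay near the floor in both groups and passed the filter of 1 base per Mb only through its WT libraries. Its call, which is among the 4 that fell, is therefore uncertain.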

How the data were processed

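RNA from 6 ear skin samples, 3 WT and 3 HdR, was sequenced. The deposited values are coverage, a signal that sums for each gene the bases aligned to it, and the authors' aligner, counting program, annotation and strandedness were not given in the sources used. The submitters' processing notes name the build GRCm38. Groups and replicate numbers came from the titles.

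Columns were scaled by the trimmed mean of M values (30% of ratios and 5% of intensities trimmed) to bases per Mb. A gene entered the fit if 3 or more libraries reached 1 base per Mb. The log2 of coverage plus a pseudocount of 1 was fitted by genotype alone with limma 3.58.1 in R 4.3.3 (trend and robust options), and p-values were two-sided and adjusted by Benjamini-Hochberg across every gene in the fit, with a threshold of 0.05. Because of the added 1, changes of low genes are understated. The procedure was tested on simulated data with independent noise for each gene. These data held no length trend and no library that stood apart, so the simulation does not cover either feature. Lengths came from GENCODE M21 (longest transcript, or shortest principal transcript), and the length trend was a natural spline with 4 degrees of freedom on log2 length, removed from each library around its mean. Alternatives were other scalings, filters and pseudocounts, voom, the replicate block, both length trends and each library left out. The trend on principal length combined with the block was added after seeing the data.

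After removal of genotype means, WT and HdR libraries of the same replicate number correlated across genes at 0.16, 0.42 and 0.37. Libraries of different numbers correlated at −0.24, 0.16, −0.16, −0.38, 0.098 and −0.36. WT replicate 1 was thus as close to HdR replicate 3 as to HdR replicate 1, so these values do not establish a pairing. The numbers were nevertheless treated as pairing the samples in the fits with the replicate block. The labels do not state a pairing.

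The members, classes, gene lists and the rule for naming genes were chosen with earlier results of these data known. Named are all paralogs and other symbols with the parents of the paralogs, the 6 core members with the largest and the 6 with the smallest changes, the 6 most covered per kb, Rps27a and, from each list, the genes with the lowest p (at most 4). Members described for their role, and other genes named beside a list, were chosen after their values were seen. Results for some genes that these rules would name are not reported here. Promoter sequences came from RefSeq on GRCm38.p6.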

Additional observations from a re-analysis of the deposited data

How the results depend on the processing

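Under every alternative run except those named here, the count of members called higher stayed within 1.5 times the 77 reported and 0 members were called lower. Quantile normalisation gave 38 higher and 3 lower, testing without a filter gave 36 higher (1017 of 23289 genes), removing the longest-transcript trend gave 49 higher, and removing the principal-transcript trend gave 43 higher. Removing the longest-transcript trend without HdR replicate 2 left 3 higher (237 of 14773 genes). Leaving out 1 library at a time gave 3 to 83 higher, with 3, 17, 49 and 27 without WT replicates 1 and 3 and HdR replicates 1 and 2. With the replicate block and the longest-transcript trend removed, 1 member was called lower (Rps4x; 2965 of 14901 genes), and with the block and the principal-transcript trend removed, 2 were (Rps4x and Rpl36al). The replicate block alone gave 83 higher and changed the calls of 6 members, among them Rpl4, Rpl5, Rpl10, Rps26 and Rpl36al, and no other call of a member. Libraries were not left out for the pathway and marker lists. The cause of these differences was not tested.

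The subunit medians were 0.42 (large) and 0.41 (small) with quantile normalisation, 0.63 and 0.73 with the longest-transcript trend removed, with or without the replicate block, 0.59 and 0.58 with the principal-transcript trend removed, again with or without the block, and 0.52 and 0.63 with the longest-transcript trend removed without HdR replicate 2.

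Some named members changed sign. With quantile normalisation the change was −0.23 for Rpl10, −0.16 for Rpl3, −0.66 for Rpl7, −0.60 for Rps3a1 and −0.67 for Rps4x. With total scaling it was −0.057 for Rpl7 and −0.11 for Rps4x. With the longest-transcript trend removed, with or without the block, it was −0.077 for Rpl10, −0.14 for Rpl36al, −0.13 for Rpl7, −0.031 for Rps26, −0.27 for Rps3a1, −0.29 for Rps4l and −0.40 for Rps4x. With the principal-transcript trend removed, with or without the block, it was −0.095 for Rpl10, −0.40 for Rpl36al, −0.21 for Rpl7, −0.077 for Rpl7l1, −0.094 for Rps26, −0.22 for Rps3a1, −0.25 for Rps4l and −0.35 for Rps4x. With the longest-transcript trend removed without HdR replicate 2 it was −0.033 for Rpl10, −0.062 for Rpl36al, −0.034 for Rpl7, −0.012 for Rps26, −0.13 for Rps3a1, −0.18 for Rps4l and −0.23 for Rps4x. Median-of-ratios scaling, a pseudocount of 0.1, a filter at 5 bases per Mb and voom changed no sign among the named members. Depth limits chiefly the members with the lowest WT means, Rpl32l, Rpl39l, Rps19bp1 and Rps4l (7.08 to 21.4 bases per Mb), and Rpl10l, which did not pass the filter and was fitted only without one.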
